A study of Mus musculus with 2 samples.

Results

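The Gimap genes encode GTPases of the immunity-associated protein family, and their transcripts were followed here in T cells taken from mouse melanomas. The members were all 8 Gimap features (Gimap1, Gimap3, Gimap4, Gimap5, Gimap6, Gimap7, Gimap8 and Gimap9) among 31053 mouse genes of the count matrix. They were chosen as a family whose summed level had been seen to differ between T cell lineages, with Gzmb in CD8+ T cells, with Ccr7 in conventional T cells and between hashtag names. Values of those comparisons are therefore descriptions of how the members were chosen.

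TCR-β+ T cells were sorted on day 9 from tumors of B16, a mouse melanoma line, and from tumors of B16–IL-33, the same line engineered to overexpress a secreted form of the alarmin IL-33. The tumors were grown in the skin of the flank of C57BL/6J mice with no further treatment, and the age of the mice was not given in the sources used here. Cells were labelled with hashtag antibodies named for a tumor and the number 1 or 2, mixed into 1 pool, and sequenced as a 5′ gene expression library, a hashtag library and a TCR library. There was no replicate of any condition, so no test was possible, and each interval below is a 95% interval that covers counting error only.

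GIMAP proteins are small guanine nucleotide–binding proteins found mainly in lymphocytes, and several sit on intracellular membranes through a hydrophobic tail. They are best known for their part in the survival of resting T cells: mice or rats without functional Gimap5 lose naive T cells, and Gimap1 is needed to keep mature lymphocytes alive. Gimap4 has been tied to T cell death, Gimap6 to autophagy, and Gimap7 binds nucleotide as a dimer. Gimap3 and Gimap5 are close paralogs.

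Of 14035 barcodes, 9078 passed limits of 200 to 2500 detected genes and under 5% mitochondrial transcripts, with a median of 2467 UMIs (unique molecular identifiers, one per captured transcript). A lineage was set by each cell's own UMIs. CD8+ T cells had more Cd8a and Cd8b1 than Cd4 and Foxp3 UMIs (1260 cells), Treg cells had Foxp3 and no CD8 UMI (2609 cells), Tconv cells had Cd4 and neither (1769 cells), and NKT cells had Zbtb16 and neither (81 cells, 21 of them also Tconv). The 6 markers of the T cell receptor complex were all detected in each lineage and summed to between 3316 and 4194 CPM (a gene's UMIs per 1e6 UMIs of the group). In 193 myeloid cells, picked for at least 3 UMIs of myeloid markers and no CD3 UMI, the same markers summed to 38.3 CPM.

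All members lie side by side on mouse chromosome 6, from Gimap8 to Gimap3, over chr6:48647234-48770851 (GRCm38, GENCODE vM21), a span of 123618 bp. Of the 8 genes, 6 are on the plus strand, and Gimap6 and Gimap3 are on the minus strand. The cluster was well covered next to its surroundings. In cells of the T lineages the members had 1668 (Gimap8) to 9709 (Gimap4) UMIs each, whereas the 3 nearest genes on either side and the other 3 genes inside the cluster had 0 to 295. One of the latter, Gm28053, is a read-through model that shares 81 exonic bases with Gimap7, 198 with Gimap1 and 153 with Gimap5, and it had 93 UMIs. How reads from the shared bases were counted was not examined, so counts of these 3 members may be affected. Gimap3 and Gimap5 transcripts shared 190 stretches of 50 bases, 7.52% of those of Gimap3 and 4.53% of those of Gimap5. What part of their counts came from these stretches was not measured. No other pair of members shared a stretch of that length.

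The promoters of Gimap6 and Gimap7 are shown because the levels of these neighbors, singled out after their values were seen, went opposite ways in some comparisons. They did so in CD8+ T cells by Gzmb and in the splits by Ccr7, given below. In others they did not. Both were lower in CPM in cycling Treg cells (ratios of 0.753 and 0.792), and in Treg cells by Gzmb Gimap6 did not differ (0.988). Gimap6 (chr6:48701582-48708225) and Gimap7 (chr6:48718621-48724636) are protein-coding genes. The sequences are from RefSeq (GRCm38.p6) and run from 214 to 15 bases before the start, chr6:48708259-48708458 on the minus strand for Gimap6 and chr6:48718407-48718606 on the plus strand for Gimap7. The start is that of RefSeq. For Gimap6 it lies upstream of the start of the gene as given above, which is from GENCODE. Capitals mark a match to the motif searched for ETS factors, GGAAGT, in Gimap6 and for RUNX factors, TGTGGT, in Gimap7. The latter is printed as its reverse complement. Shorter forms, such as GGAA alone, were not searched and are not marked.
Gimap6: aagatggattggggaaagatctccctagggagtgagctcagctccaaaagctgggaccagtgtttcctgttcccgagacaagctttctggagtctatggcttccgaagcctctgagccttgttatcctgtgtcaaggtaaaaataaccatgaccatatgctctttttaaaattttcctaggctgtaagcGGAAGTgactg
Gimap7: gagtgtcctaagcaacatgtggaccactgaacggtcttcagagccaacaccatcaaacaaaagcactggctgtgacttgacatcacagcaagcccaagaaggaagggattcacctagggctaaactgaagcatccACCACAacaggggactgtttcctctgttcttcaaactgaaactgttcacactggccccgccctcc

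All 8 members matched a RefSeq promoter. Over the 250 bases before the start and on both strands, TGTGGT was found in 3 of the 8 (Gimap1, Gimap4 and Gimap7) and in 14.0% of 32851 promoter windows. The motif searched for ETS factors, GGAAGT, was found in 2 of the 8 (Gimap5 and Gimap6) and in 19.7% of windows. A KLF core, CCACCC, was found in 5 of the 8 and in 28.1% of windows, and the cores searched for TCF1/LEF1 (CTTTGA), AP-1 (TGANTCA) and factors of the GATA family (AGATAA) were found in none, against 13.8%, 6.75% and 9.99% of windows. The motifs did not overlap in the members, and these matches are letters in a window, not sites of binding.

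Transcripts of the family were found in nearly every T cell. Summed over its members it took 2229.8 CPM (2189 to 2271) in CD8+ T cells, 3052 (3014 to 3090) in Treg cells, 2672 (2627 to 2718) in Tconv cells and 3129.6 (2925 to 3345) in NKT cells. In the myeloid cells it took 178 (149.6 to 211). Treg cells were above Tconv cells by a ratio of 1.14 (1.12 to 1.17), Tconv cells were above CD8+ T cells by 1.20 (1.17 to 1.23), and NKT and Treg cells did not differ beyond counting error (1.03, 0.957 to 1.10). After each cell was thinned to 1500 UMIs, at least 1 Gimap UMI was found in 93.7% of CD8+ T cells, 96.7% of Treg cells, 93.4% of Tconv cells and 93.7% of NKT cells, against 15.6% (10.2 to 22.5) of myeloid cells. Median depths before thinning were 3462.5, 2780, 2498, 2939 and 3619 UMIs. Counted per cell, the family had 8.94 UMIs in CD8+ T cells, 9.66 in Treg cells, 7.58 in Tconv cells and 10.8 in NKT cells, so on that scale CD8+ T cells stood above Tconv cells.

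**Figure D1:**
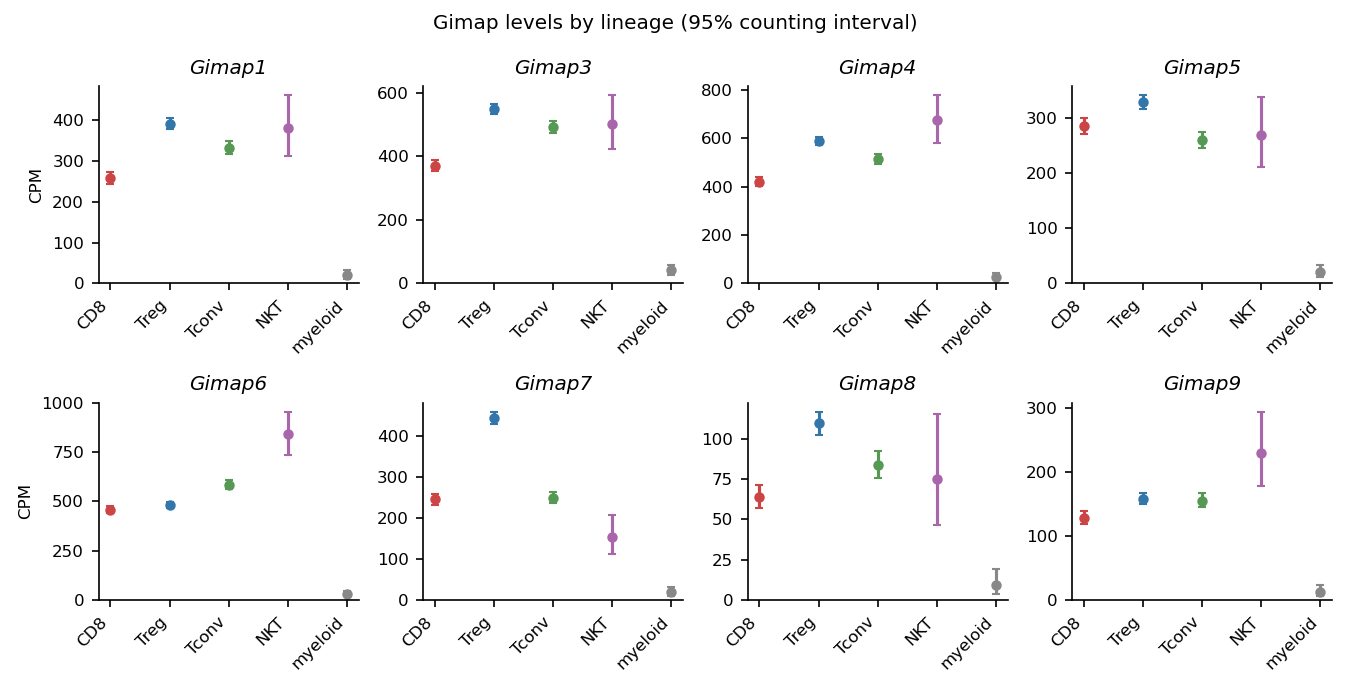
Level of each Gimap gene in CPM (y axis, from 0) in CD8+, Treg, Tconv, NKT and myeloid cells of 1 pooled library; points are summed CPM and bars the 95% Poisson counting interval. Gimap7 is highest in Treg cells at 445 CPM and Gimap6 in NKT cells at 841 CPM, and the myeloid cells are at 41.0 CPM or less for every member.

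The lineages ranked differently from member to member. Gimap7 was at 245 CPM in CD8+ T cells, 445 in Treg cells, 249 in Tconv cells and 155 in NKT cells. Treg cells thus stood apart, 1.78 times Tconv cells (1.67 to 1.90), while Tconv and CD8+ T cells did not differ beyond counting error (1.02, 0.938 to 1.10). Gimap6 ran the other way at 458, 479.9, 585 and 841 CPM in the same order, so that it was the only member lower in Treg than in Tconv cells (0.821, 0.782 to 0.861).

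Gimap5 and Gimap1, the members tied to lymphocyte survival, differed less between the 4 lineages than Gimap7 and Gimap6. Each of the other members did so too, so this was not particular to them. Over the 9 groups of T cells described below, Gimap5 was near the median gene, at 1.93-fold against 1.88-fold. Gimap5 was at 286 CPM in CD8+ T cells, 329 in Treg cells, 259.5 in Tconv cells and 269 in NKT cells, and its Treg over Tconv ratio was 1.27 (1.19 to 1.36). Gimap1 was at 257, 391, 332 and 381 CPM in that order. For Gimap3, the paralog of Gimap5, the values were 371, 550.4, 493 and 503 CPM. Gimap1 and Gimap3 both had CD8+ T cells lowest, below Tconv cells by more than counting error, whereas for Gimap5 CD8+ T cells were next to Treg cells. Counted per cell the order of CD8+ and Tconv cells turned, to ratios of 1.09 (1.02 to 1.18) for Gimap1 and 1.06 (1.00 to 1.13) for Gimap3. Without the upper limit on detected genes, Gimap5 was lower in CD8+ than in Tconv cells (0.867).

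Gimap4, the member tied to T cell death, had 420.3 CPM in CD8+ T cells, 589.7 in Treg cells, 514 in Tconv cells and 676 in NKT cells. Gimap8, the least counted member, had 64.1, 109.7, 83.9 and 75.5 CPM in that order, and Gimap9 had 128, 158, 155 and 230.0. NKT cells led for Gimap9, at 1.46 times Treg cells (1.12 to 1.87), and for Gimap4 their lead over Treg cells was within counting error (1.15, 0.985 to 1.33). No member passed 2-fold between Treg and Tconv cells, where 5.05% of 7886 genes did in either direction, or between CD8+ T cells and Tconv cells, where 4.02% of 7020 did. At 1.5-fold, 1 member (Gimap7) passed between Treg and Tconv cells, as did 15.5% of genes.

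NKT cells could be picked in a second way that used no expression, by the invariant alpha chain that joins TRAV11 to TRAJ18. This gave 62 cells, only 16 of them among the 81 picked by Zbtb16. In these cells the family summed to 3697 CPM (3440 to 3969), above the other Tconv cells by 1.39 (1.29 to 1.496). Gimap4 (826 CPM, ratio 1.62, 1.38 to 1.89), Gimap6 (869.9 CPM, 1.496, 1.28 to 1.74), Gimap3 (701 CPM, 1.43, 1.20 to 1.69) and Gimap1 (430 CPM, 1.30, 1.04 to 1.61) were higher than in Tconv cells, and Gimap5, Gimap8 and Gimap9 had intervals that included 1. Gimap7 was not lower here (242 against 250.3 CPM, 0.965, 0.713 to 1.28), although it was lower in the cells picked by Zbtb16 (155 against 251 CPM, 0.615, 0.443 to 0.833), where the interval of the per-cell ratio included 1 (0.748, 0.538 to 1.01). No member passed 2-fold in either comparison, against 15.4% of 5186 genes by alpha chain and 11.4% of 5213 genes by Zbtb16. At 1.5-fold, 2 members passed by Zbtb16, Gimap7 and Gimap9, as did 27.3% of genes.

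Cells of each lineage were split by Gzmb, the granzyme of killing and activated T cells. They were also split by Ccr7, the receptor that brings naive and central memory cells to lymph nodes. Each split rests on at least 1 UMI of the gene, and depth differed with it. The median was 3908.5 UMIs in CD8+ T cells with Gzmb and 3047 without, and 4672 with Ccr7 and 3253 without. In Treg cells it was 3018 with Gzmb, 3736 with Ccr7 and no Gzmb, and 2353 with neither. In Tconv cells other than NKT cells it was 2770.5 with Ccr7, 2426 with Gzmb and no Ccr7, and 2379 with neither. The CD8+ split by Gzmb and the Tconv split by Ccr7 were among those that chose the family. In CD8+ T cells without Gzmb (592 cells), Gimap6 was at 572 CPM against 378 with Gzmb (668 cells), a ratio of 1.52 (1.40 to 1.65). Gimap7 was at 218 against 264 CPM (0.825, 0.733 to 0.927) and Gimap3 at 401 against 351 CPM (1.14, 1.04 to 1.25). For the other 5 members the interval included 1. None of the 8 passed 2-fold, where 3.23% of 4858 genes did, and 1 (Gimap6) passed 1.5-fold, as did 11.7% of genes. Without the upper limit on detected genes, Gimap7 no longer differed beyond counting error (0.991, 0.893 to 1.10), and Gimap3 turned per cell (0.903).

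In Tconv cells with Ccr7 (309 cells), Gimap6 was at 726 CPM against 550.4 without Ccr7 (1460 cells), a ratio of 1.32 (1.21 to 1.43). Gimap7 was at 131 against 278 CPM, and its ratio of 0.471 (0.389 to 0.565) made it the only member past 2-fold, where 7.31% of 5104 genes passed it in either direction and 6.37% were lower by that much. The ratio of Gimap7 was no longer past 2-fold when counted per cell (0.543), with CPM averaged over cells (0.506) or without the upper limit on detected genes (0.507). Gimap8 (0.667, 0.498 to 0.881), Gimap5 (0.734, 0.628 to 0.854), Gimap4 (0.799, 0.718 to 0.887) and Gimap1 (0.822, 0.720 to 0.935) were lower as well, and Gimap3 and Gimap9 had intervals that included 1. Per cell, the intervals of Gimap8 (0.770, 0.575 to 1.02), Gimap4 (0.921, 0.828 to 1.02) and Gimap1 (0.948, 0.831 to 1.08) included 1 as well.

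The same splits in the other lineages were not part of the choice. By Gzmb, Gimap7 was lower in Treg cells without it (364 against 492 CPM, 0.740, 0.689 to 0.794) and in Tconv cells without it (208 against 357 CPM, 0.582, 0.519 to 0.654). By Ccr7, Gimap7 was lower in CD8+ T cells with it (180.5 against 259 CPM, 0.696, 0.586 to 0.823) and in Treg cells with it (292 against 462 CPM, 0.632, 0.553 to 0.721). In CPM, Gimap7 was thus lower on the side without Gzmb or with Ccr7 in each of the 6 splits. It was not alone in this. Ratios were below 1 for 8 of 8 members in Treg cells by Gzmb. They were below 1 for 7 of 8 in Tconv cells by Gzmb and in Treg cells by Ccr7. In CD8+ T cells by Ccr7 they were below 1 for 5 of 8. The median gene was below a ratio of 1 in each of these splits as well. In Treg cells by Ccr7, Gimap5 (0.643), Gimap8 (0.693), Gimap4 (0.713) and Gimap3 (0.729) were lower beyond counting error too. Per cell, their intervals included 1 there, as did that of Gimap7 (0.898, 0.785 to 1.02).

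Gimap6 was higher with Ccr7 in CD8+ T cells (597 against 428 CPM, 1.39, 1.26 to 1.54) and in Treg cells (528 against 474 CPM, 1.11, 1.01 to 1.23), the latter not beyond counting error without the upper limit on detected genes (1.01, 0.926 to 1.11) or without cells of several beta chains (1.05, 0.929 to 1.17). Its differences by Gzmb in Treg cells (0.988, 0.925 to 1.05) and Tconv cells (1.08, 0.998 to 1.18) were within counting error. In these 4 splits no member passed 2-fold, against 1.08% of genes for Treg and 2.72% for Tconv cells by Gzmb, and 4.34% for CD8+ and 3.57% for Treg cells by Ccr7. The cells shared a library and in part the same cells across splits, so the splits are not independent of each other.

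**Figure D2:**
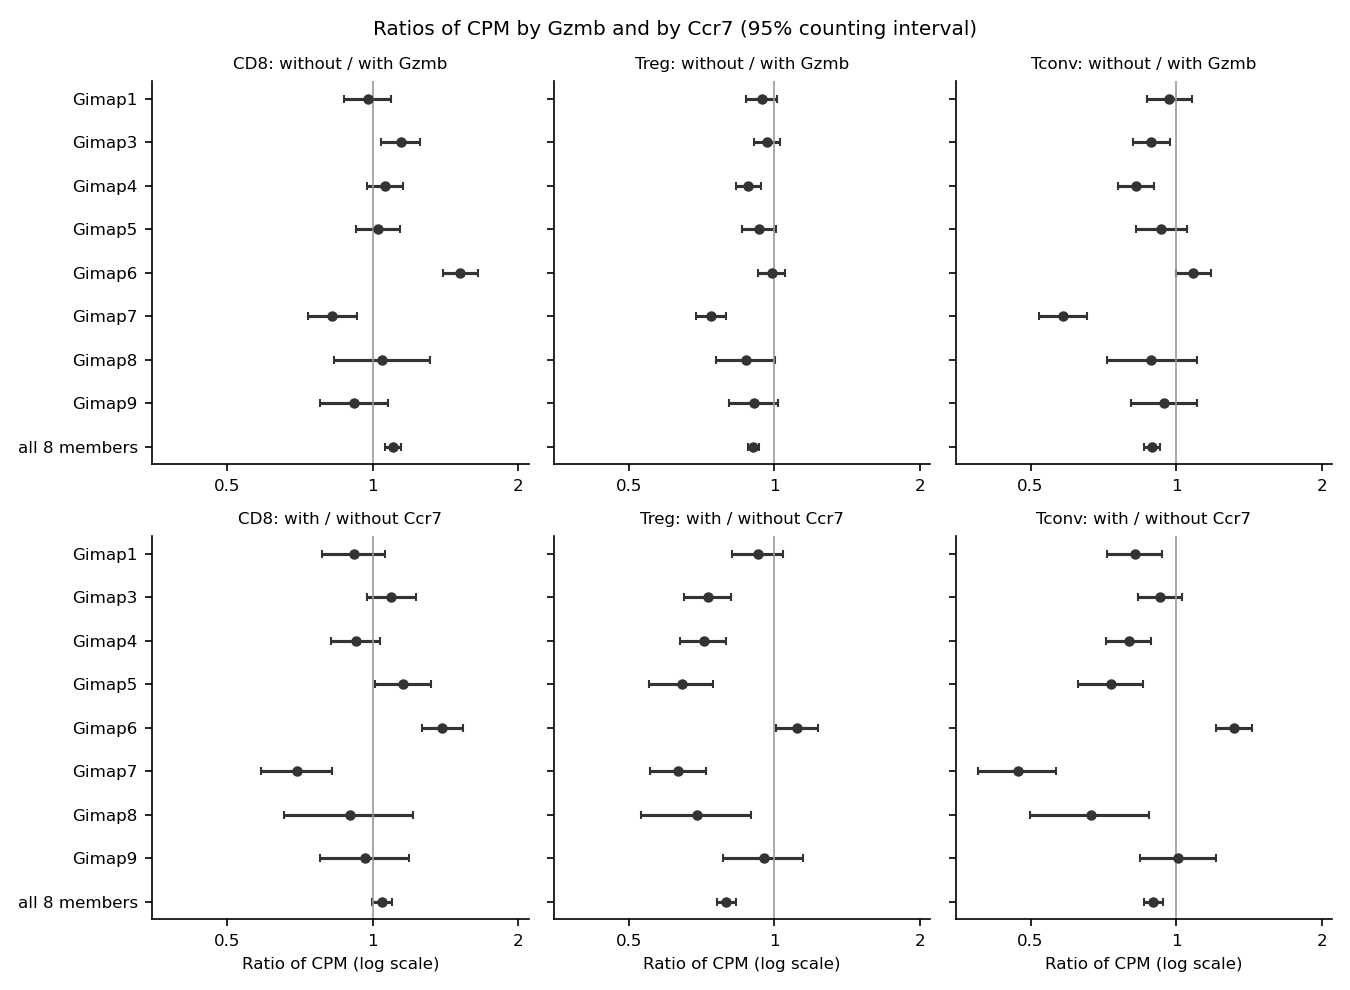
Ratio of CPM of each Gimap gene and of all 8 together (log x axis) between cells without and with a Gzmb UMI (top row) and with and without a Ccr7 UMI (bottom row) in CD8+, Treg and Tconv cells; points are ratios, bars 95% counting intervals, and the gray line is no difference. Gimap7 lies left of the line in all 6 panels, from 0.471 to 0.825, and Gimap6 lies right of it in 5 of the 6.

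Transcripts that mark other cells differed between these groups. The 6 myeloid markers, none of them at 0, summed to 362 CPM in CD8+ T cells without Gzmb and 81.4 with it, to 326 CPM in Treg cells without Gzmb and 116 with it, and to 68.0 CPM in Tconv cells with Ccr7 and 225 without it. After cells with at least 3 UMIs of myeloid, B cell or melanoma markers were left out, the ratios of Gimap6 were 1.55 in CD8+ T cells by Gzmb and 1.30 in Tconv cells by Ccr7, and those of Gimap7 were 0.861 and 0.468, respectively. In Treg cells by Gzmb, that of Gimap7 was 0.758.

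Treg markers other than Foxp3 (Il2ra, Ctla4 and Ikzf2), some of which activated conventional T cells also express, moved with Gimap7 among Tconv cells. They summed to 362 CPM in Tconv cells with Ccr7 and 923 without it, and to 515 CPM in Tconv cells without Gzmb and 1590 with it, with Foxp3 at 0 by construction. At least 1 UMI of them was found in 56.8% of Tconv cells. In the 764 Tconv cells without one, the ratio of Gimap7 by Ccr7 was 0.428 (0.320 to 0.564) and that by Gzmb was 0.863 (0.676 to 1.11), so that the difference by Gzmb was no longer beyond counting error. Gimap6 was at 1.20 (1.07 to 1.35) by Ccr7 and 0.980 (0.852 to 1.13) by Gzmb in these cells. Against them, Treg cells had 2.07 times the level of Gimap7 (1.87 to 2.29) and 0.687 times that of Gimap6 (0.646 to 0.731). In the other lineages, all 4 Treg markers summed to 405 CPM in CD8+ T cells without Gzmb and 519 with it, and to 407 with Ccr7 and 486 without it. In Treg cells they summed to 2714 CPM without Gzmb and 3509 with it, and to 2233 with Ccr7 and 3325 without it.

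Across 9 groups of T cells that share no cell, the sum, in which members that go opposite ways cancel in part, ranged 1.48-fold from the lowest to the highest group. Gimap7 ranged 3.73-fold, from 132 CPM in Tconv cells with Ccr7 to 492 in Treg cells with Gzmb, a wider range than that of 88.4% of 4195 genes with at least 500 UMIs. The groups were set by lineage, Gzmb and Ccr7, by which the family was chosen, and Gimap7 was singled out after its values were seen. Its rank among genes is therefore a description of that choice. Gimap6 ranged 2.23-fold, from 378 CPM in CD8+ T cells with Gzmb to 841 in NKT cells, and the other 6 members ranged 1.57- to 1.93-fold, around the median gene at 1.88-fold.

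Counted within the same cells, the ratio of Gimap6 to Gimap7 UMIs is free of the depth of a cell and of the scale used. It was 5.46 (4.52 to 6.65) in Tconv cells with Ccr7 and 5.44 (3.92 to 7.72) in NKT cells picked by Zbtb16. The latter had 234 Gimap6 and 43 Gimap7 UMIs, whereas the 62 NKT cells picked by alpha chain had 180 and 50. The high ratio thus holds for the Zbtb16 pick and was less marked by alpha chain. The other groups were lower. The ratio was 2.62 (2.35 to 2.93) in CD8+ T cells without Gzmb, 2.39 in Tconv cells with neither Gzmb nor Ccr7, and 2.21 in Treg cells with Ccr7 and no Gzmb. It was 1.43 (1.30 to 1.57) in CD8+ T cells with Gzmb, 1.32 in Tconv cells with Gzmb and no Ccr7, 1.21 in Treg cells with neither, and 0.980 (0.927 to 1.04) in Treg cells with Gzmb. Within each lineage the group with Gzmb had the lowest ratio. As the library holds 5′ tags, the ratio is read between groups and not as a level of one gene against another.

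**Figure D3:**
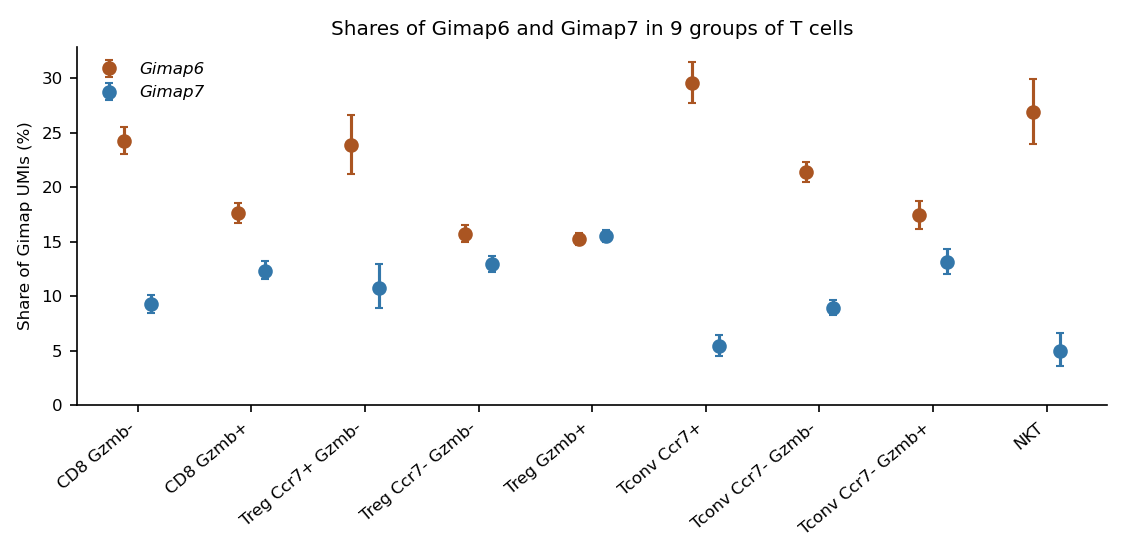
Share of all Gimap UMIs taken by Gimap6 and by Gimap7 (y axis, percent, from 0) in 9 groups of T cells that share no cell; points are shares and bars 95% Clopper-Pearson intervals. Gimap6 takes 29.6% and Gimap7 5.42% in Tconv cells with Ccr7, and they meet at 15.2% and 15.6% in Treg cells with Gzmb.

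Over the 9 groups, Gimap6 and Gimap7 had the lowest Pearson correlation of log2(CPM + 1) of the 28 pairs of members (r = -0.73), and Gimap3 and Gimap8 the highest (r = 0.84). The median pair was at 0.50, and 4 pairs were below 0, 3 of them with Gimap6. These are descriptions over 9 groups of 1 library. In single thinned cells the picture differed: Gimap7 was found in 32.7% of CD8+ T cells with a Gimap6 UMI and 26.1% of those without, in 48.2% and 44.8% of Treg cells, and in 29.0% and 24.4% of Tconv cells. This was not particular to Gimap6 and Gimap7, since most pairs of members went the same way in each lineage. In Tconv cells, for example, Gimap4 was found in 55.8% of cells with a Gimap3 UMI and 39.5% of those without. A thinned cell had UMIs of 2.68 members on average in CD8+ T cells, 3.25 in Treg cells and 2.77 in Tconv cells.

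Genes whose level went most closely with the family sum over the 9 groups were Cbl, a ubiquitin ligase that dampens T cell receptor signaling (r = 0.97), Skiv2l, a helicase of RNA decay (0.96), Gsdmd, the pore former of pyroptosis (0.95), Stk10, a lymphocyte kinase (0.95), and Golgb1, a Golgi protein (0.95). Among those that went most against it were Bola2 (-0.97), Lta4h, an enzyme of leukotriene synthesis (-0.95), Fkbp4, an Hsp90 cochaperone (-0.94), and Lyar (-0.90). Of 4187 genes, 4.56% had r above 0.8. The genes most like Gimap7 alone, picked after its values were seen, were Pglyrp1 (0.99) and Klrg1 (0.98). Klrg1 is a receptor of terminally differentiated effector T cells, and the study lists it among the markers of IL1RL1+ Treg cells. With Gimap7, 15.9% of genes had r above 0.8. The genes most like Gimap6 alone were Phf21a and Znrf1 (0.94 each), with 1.55% of genes above 0.8.

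Lists of genes that mark T cell states gave the scale of these differences. In CD8+ T cells without Gzmb, 6 of 12 quiescence and homing genes were at least 2-fold higher, as were 1.24% of all genes, and 12 of 12 were above a ratio of 1, with a median log2 ratio of 1.00 against -0.07 over all genes. Examples were Tcf7, the factor of naive and memory T cells (245 against 91.8 CPM, ratio 2.66), Il7r, the IL-7 receptor (206 against 92.2 CPM, 2.23), and Klf2, which controls egress (808 against 492 CPM, 1.64). Of 13 effector and checkpoint genes, 10 were at least 2-fold lower, as were 2% of all genes, Gzmb by construction, and Tnfrsf9 was at 116 against 348 CPM (0.333). The Gimap family had a median log2 ratio of 0.05, with 5 of 8 above a ratio of 1. Of 8 measured Bcl-2 family genes none passed 2-fold, and Bcl2 was at 156 against 84.8 CPM (1.84).

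In Tconv cells with Ccr7, 7 of 12 quiescence and homing genes were at least 2-fold higher, as were 0.94% of all genes, Ccr7 by construction, and all 12 measured effector and checkpoint genes were at least 2-fold lower, as were 6.37% of all genes. Of 8 measured Bcl-2 family genes 1 was at least 2-fold higher, Bcl2 at 177 against 59.7 CPM (2.96), and 2 were at least 2-fold lower, Bcl2l1 (0.407) and Pmaip1 (0.269). Genes of IL-7 and common gamma chain signaling were split, with Socs1 at 288 against 144 CPM (2.01) and Cish at 51.8 against 108 CPM (0.479) among 8 measured. Gimap6 thus had the direction of the quiescence genes in both splits and Gimap7 that of the effector genes, each by a smaller ratio than the median of that list. Both splits were among those that chose the family, and both genes were singled out after their values were seen, so this is a description. In other comparisons it held in part. In Treg cells by Gzmb, median log2 ratios were 0.30 for quiescence and -0.57 for effector genes, against -0.02 for Gimap6 and -0.44 for Gimap7. In expanded CD8+ clones they were -1.38 and 0.68, against -0.53 for Gimap6 and -0.11 for Gimap7.

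Clone size came from the TCR library and was not used to choose the family. The Gimap counts came from the same cells, however. In CD8+ T cells clone size also went with Gzmb, which was part of the choice, so that comparison is not independent of it. A clone was called expanded when at least 2 cells of a lineage shared a clonotype. In CD8+ T cells of expanded clones (200 cells) the family summed to 1896 CPM against 2331 in single clones (721 cells), a ratio of 0.813 (0.772 to 0.856). Gimap6 (339 against 488 CPM, 0.695, 0.615 to 0.783), Gimap4 (332 against 452 CPM, 0.734, 0.648 to 0.830) and Gimap3 (290.1 against 392 CPM, 0.739, 0.647 to 0.843) were lower. Gimap7 (236 against 254 CPM, 0.928, 0.797 to 1.08) and the other 4 members had intervals that included 1. Expanded CD8+ cells had Gzmb at 1769 against 909 CPM (1.95) and Tcf7 at 57.4 against 181 CPM (0.317), and 6 of 11 quiescence and homing genes were at least 2-fold lower, as were 1.35% of all genes.

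In Treg cells, expanded clones (98 cells) and single clones (1607 cells) did not differ in the sum beyond counting error (3253 against 3104 CPM, 1.05, 0.985 to 1.11), nor did any member. In Tconv cells (63 against 1117 cells) the sum ratio was 0.949 (0.870 to 1.03), and Gimap6 alone was lower (419 against 593 CPM, 0.705, 0.567 to 0.868), though not beyond counting error without cells that held myeloid, B cell or melanoma markers (0.846, 0.678 to 1.04). By clone size no member passed 2-fold, against 1.92%, 4.89% and 8.13% of genes in CD8+, Treg and Tconv cells. Whether the ratios differ between lineages was not tested.

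Hashtags tied few cells to a tumor: 796 cells had only B16 tags and 143 only B16–IL-33 tags, and 849 of these 939 rested on 1 tag UMI. In CD8+ T cells the family summed to 1887 CPM in 19 cells of B16–IL-33 and 2653 in 103 cells of B16 tumors (0.711, 0.599 to 0.841). By single tags it was 1533 (1181 to 1958) and 2235 (1808 to 2732) CPM for B16–IL-33 tags 1 and 2, and 2095 (1849 to 2364) and 2892 (2700 to 3095) for B16 tags 1 and 2. The tags of the tumors thus overlapped, since B16–IL-33 tag 2 was above B16 tag 1. Gimap3 (0.602), Gimap4 (0.597) and Gimap6 (0.632) were lower with intervals below 1, from 23 to 32 UMIs each in B16–IL-33. Without the upper limit on detected genes, the sum ratio was 0.893 (0.761 to 1.04), and per cell the intervals of these 3 members included 1.

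In Treg cells the sum was 2860.1 CPM in 55 cells of B16–IL-33 against 3082 in 245 cells of B16 (0.928, 0.843 to 1.02), and Gimap1 alone was lower (304 against 437 CPM, 0.695, 0.515 to 0.923), though not with tags numbered 1 alone, where its ratio was 1.02. In Tconv cells it was 2454 CPM in 17 cells against 2859 in 164 cells (0.858, 0.699 to 1.04), and no member differed beyond counting error. No member passed 2-fold by tumor in any lineage, against 1.21%, 3.8% and 4.94% of genes in CD8+, Treg and Tconv cells. Whether tags 1 and 2 mark separate mice was not given in the sources used here.

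**Figure D4:**
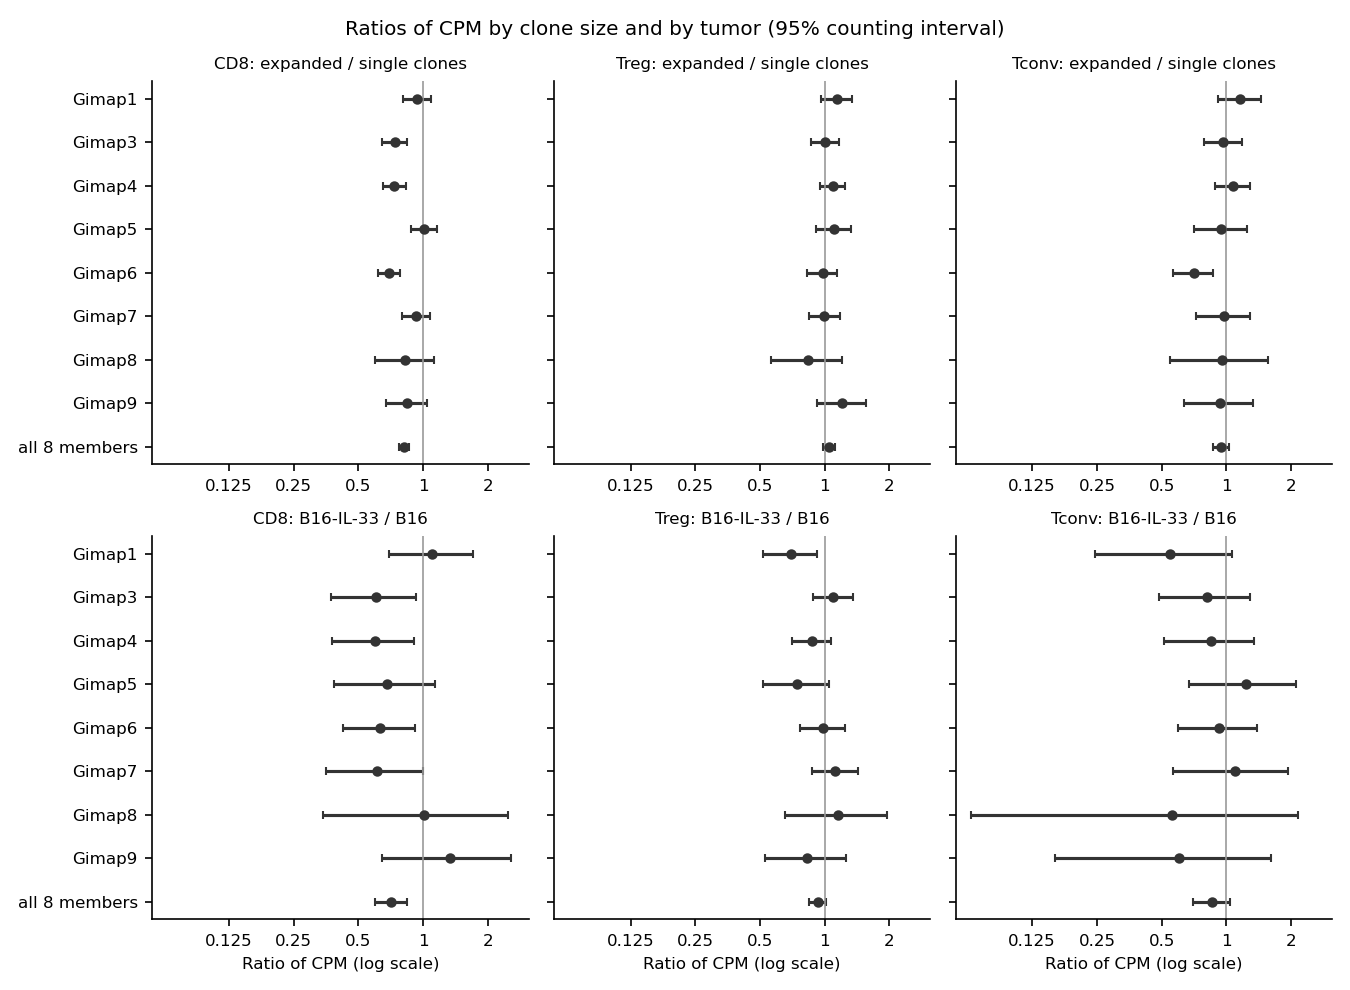
Ratio of CPM of each Gimap gene and of all 8 together (log x axis) between expanded and single clones (top row) and between B16–IL-33 and B16 tumors (bottom row) in CD8+, Treg and Tconv cells; points are ratios, bars 95% counting intervals, and the gray line is no difference. For all 8 together, the interval lies below 1 in CD8+ T cells in both rows, at 0.813 and 0.711, and includes 1 in the other panels.

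Cycling cells, those with at least 2 UMIs of 8 mitosis genes, had a lower family sum in CPM in each lineage. The sum was 1602 against 2375 CPM in CD8+ T cells (148 cycling cells, 0.674, 0.639 to 0.712), 2571 against 3122 in Treg cells (222 cells, 0.824, 0.791 to 0.857) and 2183 against 2712 in Tconv cells (84 cells, 0.805, 0.750 to 0.863). In CD8+ T cells Gimap6 (0.536, 0.469 to 0.611), Gimap3 (0.540, 0.466 to 0.624) and Gimap5 (0.568, 0.480 to 0.667) were lowest, while Gimap7 (0.894, 0.767 to 1.04) and Gimap1 (0.920, 0.794 to 1.06) did not differ beyond counting error in CPM, and were higher per cell (1.56, 1.34 to 1.81, and 1.61, 1.39 to 1.85). Cycling cells were deeper, with a median of 6380.5 against 3180.5 UMIs in CD8+ T cells, and per cell the direction turned: the ratio of Gimap UMIs per cell was 1.18 in CD8+, 1.28 in Treg and 1.34 in Tconv cells. No member passed 2-fold in CPM, against 6.63%, 4% and 6.62% of genes.

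**Figure D5:**
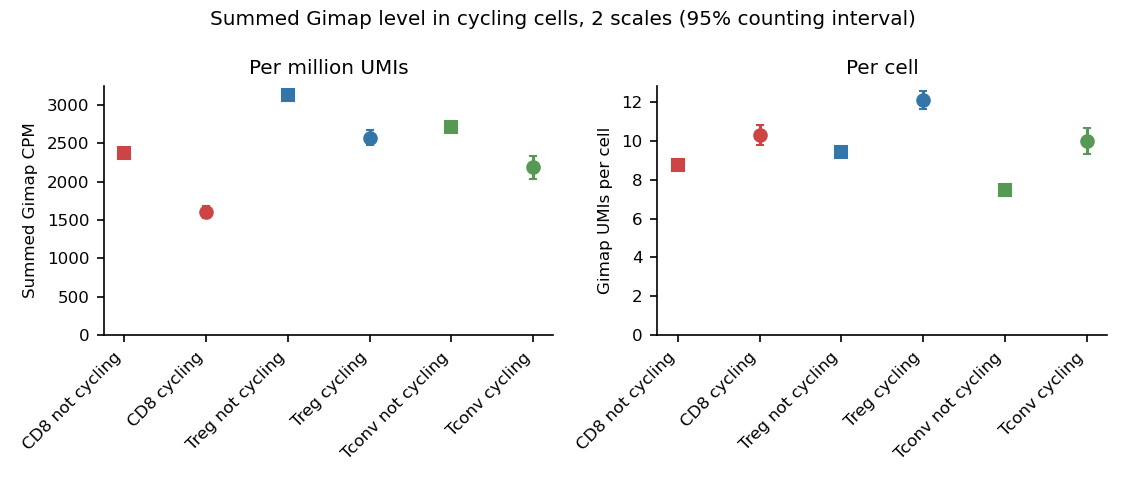
Summed Gimap level in cycling and other cells of the CD8+, Treg and Tconv lineages as CPM (left) and as UMIs per cell (right), both from 0; circles are cycling cells, squares other cells, and bars 95% counting intervals. Cycling cells are lower on the left and higher on the right in each lineage.

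Finer groups within the lineages differed as well. Treg cells with Il1rl1, the IL-33 receptor (504 cells), summed to 2998 CPM, against 2797 in Treg cells with Tcf7 or Ccr7 and no Il1rl1 (323 cells, 1.07, 1.03 to 1.12); per cell the ratio was 0.888. In that comparison Gimap7 (448 against 340.2 CPM, 1.32, 1.17 to 1.49) and Gimap3 (613 against 468 CPM, 1.31, 1.18 to 1.45) were higher and Gimap6 lower (465 against 555 CPM, 0.837, 0.755 to 0.929), and no member passed 2-fold where 2.89% of genes did. Per cell, Gimap7 (1.09, 0.966 to 1.23) and Gimap3 (1.09, 0.979 to 1.20) were within counting error. Among CD8+ T cells, the sum was 1722 CPM (1650 to 1796) in 206 cells with Pdcd1 and Havcr2 or Lag3, the receptors of exhausted cells. It was 2079 (1962 to 2201) in 140 cells with Cx3cr1 or S1pr5, and 2655 (2513 to 2804) in 111 cells with a Ly49 receptor gene. Gimap6 stood at 265, 352 and 687 CPM in these 3 groups, and Gimap7 at 206, 219 and 237 CPM.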

How the data were processed

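Gene expression was deposited as raw counts: the authors deposited UMIs per gene and barcode, before cell filters, against a combined human and mouse mm10 reference. The labels name Cell Ranger 6.1.1, and the matrix header gives software version 3.1.0. Hashtag and TCR contig UMIs were also deposited as counts. Barcodes with 200 to 2500 mouse genes and under 5% mitochondrial UMIs were kept, the limits of the study's methods. Members, lists, splits and the hashtag rule (at least 1 tag UMI, all from 1 tumor) were chosen with earlier results of these data known. CPM was summed over cells, with exact Poisson, conditional binomial or Clopper-Pearson intervals at 95% (Python 3.11.15, SciPy 1.17.1). Ratios were ranked over genes with at least 100 UMIs in the groups compared, and counted as past 2-fold with no significance test. The ratio and its interval were checked on counts simulated with Poisson error alone. That check cannot show how they behave under variation between cells, clones or tags. Cells were thinned once, with a fixed seed, to 1500 UMIs, leaving out shallower cells. No doublet caller was run; in an alternative, 428 cells with 2 or more beta chains were removed. Of named lists, up to 4 genes with the most UMIs were eligible as examples; Tcf7, Cish, Bcl2l1, Pmaip1 and the genes most like Gimap6 or Gimap7 alone were named after their values were seen. Likeness used genes with at least 500 UMIs, and the genes most like the sum were the 5 highest and 5 lowest, of which 1 is not reported here.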

Additional observations from a re-analysis of the deposited data

Results flagged for a closer look

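In the split by Gzmb, the sum of all 8 members moved one way in CD8+ T cells and the other in the CD4+ lineages. The ratio of cells without to cells with Gzmb was 1.10 (95% interval 1.06 to 1.14) in CD8+ T cells, 0.905 (0.881 to 0.928) in Treg cells and 0.892 (0.859 to 0.926) in Tconv cells. Gimap3 did the same, at 1.14 in CD8+ T cells and 0.889 in Tconv cells. In the split by Ccr7, Gimap5 had a ratio of cells with to cells without Ccr7 of 1.16 (1.01 to 1.32) in CD8+ T cells, against 0.643 in Treg cells and 0.734 in Tconv cells. These differences between lineages were not tested, since the cells come from 1 pool. Per cell, the sum in CD8+ T cells by Gzmb had the direction of the other lineages, and Gimap3 did too.

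Cells outside the lineages also held Gimap transcripts. Cells that passed the limits but met none of the lineage rules (3211 cells, median 1972 UMIs, with 84 Cd8a, 447 Cd4 and 685 Foxp3 UMIs in all) had a summed level of 2689 CPM, above the 178 CPM of myeloid cells. Barcodes above 2500 genes with a CD3 UMI (664 barcodes, median 12724.5 UMIs) had 1147 CPM.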

How the results depend on the processing

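With 1 pool and counting intervals only, no ratio here can be set against the spread between mice or cultures, and the 4 tags rest mostly on 1 UMI per cell. No paired analysis was possible because no condition has a second sample. Leaving out cells without a CD3 UMI, cells with several beta chains or cells with other markers, or a mitochondrial limit of 10%, moved none of the ratios beyond their interval, although without cells of several beta chains the interval of Gimap3 in CD8+ T cells by Gzmb reached 1 (1.10). For the splits by Gzmb, Ccr7 and cell cycle in the other lineages, CD8+ over Tconv cells, NKT cells by alpha chain and Treg cells with Il1rl1, and for leaving out Tconv cells with a Treg marker, the alternatives were chosen after seeing the data. In the 6 splits by Gzmb and by Ccr7, the ratio of Gimap7 stayed below 1 under each alternative tried, but its interval reached 1 in CD8+ T cells by Gzmb without the gene limit (0.991), in Treg cells by Ccr7 per cell (0.898) and in Tconv cells by Gzmb without cells that hold a Treg marker (0.863). That of Gimap6 stayed above 1 in CD8+ T cells by Gzmb and in the splits by Ccr7, and turned in Tconv cells by Gzmb under 1 of 8 alternatives (0.980). In the following, values are those of all 8 members unless a gene is named.

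Counted as UMIs per cell, which follows the RNA content and depth of a cell, the direction turned for CD8+ T cells by Gzmb (0.870), Tconv (1.04) and Treg (1.13) cells by Ccr7, cycling CD8+ (1.18), Treg (1.28) and Tconv (1.34) cells, CD8+ over Tconv cells (1.18) and Treg cells with Il1rl1 (0.888). Among members it turned for CD8+ over Tconv cells in Gimap1 (1.09), Gimap3 (1.06), Gimap4 (1.16), Gimap6 (1.11), Gimap8 (1.08) and Gimap9 (1.17), for CD8+ T cells by Gzmb in Gimap3 (0.903), and for Treg cells by Ccr7 in Gimap3 (1.04) and Gimap4 (1.01). In cycling cells it turned for Gimap4 (1.26), Gimap8 (1.21) and Gimap9 (1.36) in CD8+, for Gimap3 (1.18), Gimap5 (1.03), Gimap6 (1.17) and Gimap7 (1.23) in Treg, and for Gimap1 (1.31), Gimap3 (1.24), Gimap5 (1.26) and Gimap6 (1.15) in Tconv cells. Members within counting error in CPM were higher per cell in cycling CD8+ (Gimap1 1.61, Gimap7 1.56), Treg (Gimap1 1.54, Gimap4 1.44, Gimap8 1.33, Gimap9 1.42) and Tconv cells (Gimap4 1.58, Gimap7 1.52, Gimap9 1.44). The direction stayed but the value moved for B16–IL-33 over B16 in Treg cells (0.796), CD8+ T cells by Ccr7 (1.26), NKT over Tconv cells (1.43; by alpha chain 1.64), Treg over Tconv cells (1.27), Treg cells by Gzmb (0.774) and expanded CD8+ clones (0.881), and expanded Tconv clones went to 1.04.

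Without the upper limit on detected genes, the ratio was 1.34 for CD8+ T cells by Gzmb, 1.11 for CD8+ and 0.949 for Tconv cells by Ccr7, 0.948 for Treg cells by Gzmb, 0.515 for cycling CD8+ and 0.515 for cycling Tconv cells, 0.613 for cycling Treg cells, 0.674 for CD8+ and 1.08 for Treg over Tconv cells, 1.05 for NKT over Tconv cells, 1.12 for Treg cells with Il1rl1, 0.888 for expanded Treg clones, and 0.893 in CD8+ and 1.10 in Treg cells for B16–IL-33 over B16; Gimap5 in CD8+ over Tconv cells turned to 0.867. The number of members past 2-fold in Tconv cells by Ccr7 went from 1 to 0 without that limit, per cell and with CPM averaged over cells. At a limit of 1.5-fold it was 1 for CD8+ T cells by Gzmb, 2 for NKT and 1 for Treg over Tconv cells, where 11.7%, 27.3% and 15.5% of all genes passed.

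Without Tconv cells that hold a Treg marker, the ratio was 0.842 for Tconv cells by Ccr7 and 1.12 for Treg over Tconv cells, where the number of members past 2-fold went from 0 to 1. At 2 Gzmb UMIs the CD8+ ratio was 1.14. By tags numbered 1 alone, B16–IL-33 over B16 was 1.26 in Treg and 0.595 in Tconv cells, with Gimap1 in Treg cells at 1.02, and by tags numbered 2 alone 0.813 and 1.12. Expanded Treg clones by beta chain gave 0.970, and expanded Tconv clones of at least 3 cells 0.781. Thinned to 1000 UMIs, a Gimap UMI was found in 86.4% of CD8+, 92.7% of Treg and 88.3% of Tconv cells. The causes of these moves were not tested.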
